A study of Mus musculus with 12 samples.

Results

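Complement genes were followed through RNA sequencing of mouse cells: C3, C1ra, C1s1, C1qa, C1qb, Cfb, Serping1, Masp1 and C3ar1, 9 of the 53647 genes counted. They were chosen by name as complement factors, and Masp1 was selected on its fall in 1 of the comparisons below, so its values there are a description without a test. The cells are wild type by label. Both lines are named there, DC2.4, immortalized mouse dendritic cells, and 4T1, a mouse breast tumor line. Of the groups, 4 received mRNA, either uniSTING mRNA or Mock mRNA encoding EGFP, in cells labelled DC2.4 or 4T1; uniSTING is a synthetic mimic of STING, an adaptor upstream of type I interferon. The labels name a transfection agent and lipid nanoparticles as carriers, without saying which library had which, and give no time for the mRNA treatments. The other two groups, labelled DC2.4, were incubated for 24 h with extracellular vesicles of 4T1 cells given uniSTING mRNA (EXOuniSTING) or Mock mRNA (EXOmock). Each of the 6 groups holds 2 libraries, preparation 1 and preparation 2, with 14.1 to 26.0 M counts per library. Nothing in the labels ties the preparations to separate cultures. The p-values rest on the spread between the 2 libraries of a group, shared over the 6 groups in 1 model unless stated otherwise. That spread can be purely technical.

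Complement is a cascade of plasma and cell-made proteins that marks microbes, dying cells and debris. C1q recognizes targets and carries the proteases C1r and C1s in the classical pathway, MASP1 starts the lectin pathway on mannose-binding lectin or ficolins, and factor B forms the alternative pathway's convertase. All 3 routes cleave the central component C3, whose fragment C3a signals through the receptor encoded by C3ar1. The liver makes most plasma complement, macrophages and dendritic cells are main sources of C1q, and epithelial cells can make C3 locally.

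The marker genes went against the labels of both lines given mRNA, so groups are named by label only. The 12 epithelial markers summed to 5222 to 5493 counts per M of a library's total (CPM) in libraries given mRNA under the DC2.4 label, against 5.43 to 12.6 CPM in those labelled 4T1. The 12 leukocyte markers summed to 120 to 166 CPM in the former and to 8372 to 8657 CPM in the latter. Vesicle-treated libraries held 4.33 to 10.4 CPM of epithelial and 10890 to 13700 CPM of leukocyte markers. Macrophage markers (7 genes) stood at 7.37 to 11.0, 1052 to 1087 and 1191 to 1288 CPM in these 3 sets of libraries, and dendritic markers (7 genes) at 23.0 to 38.0, 259 to 269 and 356 to 385 CPM. Of the dendritic markers, Flt3 had 0 to 5 counts and Ciita 0 to 7 in any library. The epithelial marker Tjp3 went against the rest of its list. It had 39 to 107 counts in mRNA libraries labelled DC2.4, 100 to 168 in those labelled 4T1 and 49 to 102 in vesicle-treated ones. In every preparation 1 library, but hardly in preparation 2, transcripts of other tissues were present. The 6 lung epithelium markers summed to 43.9 to 78.6 CPM in preparation 1 and to 0 to 0.115 CPM in preparation 2.

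The stretches of DNA just before the start sites of 4 of these genes, which carry most of the members' counts, are shown to place what follows; they come from RefSeq, build GRCm38.p6, which held 5 of the 9 members (C3, C1ra, C1s1, C1qb and C3ar1). Each window is 250 bases long, 5′ to 3′ on the gene's strand, and ends at the base before the start. The C3 window is chr17:57228137-57228386 on the minus strand, that of C1ra chr6:124512371-124512620 on the plus strand, that of C1qb chr4:136886201-136886450 on the minus strand and that of C3ar1 chr6:122856158-122856407 on the minus strand. Capitals mark motif matches.
C3: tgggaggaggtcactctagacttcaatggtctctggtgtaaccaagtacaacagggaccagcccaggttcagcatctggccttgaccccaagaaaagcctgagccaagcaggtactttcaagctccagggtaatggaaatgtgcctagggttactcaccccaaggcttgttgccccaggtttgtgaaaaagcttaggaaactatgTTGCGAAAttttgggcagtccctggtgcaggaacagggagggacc
C1ra: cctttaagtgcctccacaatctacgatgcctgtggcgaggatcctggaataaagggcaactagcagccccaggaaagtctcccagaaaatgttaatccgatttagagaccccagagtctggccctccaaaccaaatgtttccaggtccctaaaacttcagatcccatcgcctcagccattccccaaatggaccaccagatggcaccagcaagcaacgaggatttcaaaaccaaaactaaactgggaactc
C1qb: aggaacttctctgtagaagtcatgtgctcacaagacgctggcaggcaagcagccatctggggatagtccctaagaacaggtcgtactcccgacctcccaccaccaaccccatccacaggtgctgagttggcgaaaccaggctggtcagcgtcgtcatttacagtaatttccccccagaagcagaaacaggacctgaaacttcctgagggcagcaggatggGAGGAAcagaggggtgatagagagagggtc
C3ar1: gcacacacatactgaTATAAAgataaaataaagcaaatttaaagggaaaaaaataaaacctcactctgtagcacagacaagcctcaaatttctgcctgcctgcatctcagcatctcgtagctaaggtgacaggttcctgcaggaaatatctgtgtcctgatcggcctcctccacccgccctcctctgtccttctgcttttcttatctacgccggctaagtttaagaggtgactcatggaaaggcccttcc
On both strands of 300 bases, the window above plus 50 bases after the start, 6 motifs were searched: the interferon-stimulated response element (GAAANNGAAA), the interferon gamma activated site (TTCNNNGAA), the NF-kB site by its name, the TATA box (TATAAA), a C/EBP motif (TTNCGNAA) and the PU.1 core (GAGGAA). The last 3 were chosen after results and sequences had been seen. In C3 the capitals are a C/EBP match, TTGCGAAA, 45 to 38 bases before the start; 2.47% of the 32851 promoters in the table hold such a match. C1qb has the PU.1 core 30 to 25 bases before its start, as 28.3% of promoters do somewhere in the window. In C3ar1 a TATAAA lies 235 to 230 bases before the start, and C3 has another 15 to 20 bases after its own; 13.6% of promoters hold one. C1ra has no capitals: its matches follow the start, TTCCCTGAA for the interferon gamma activated site at bases 33 to 41 and TTCCTC, the PU.1 core on the other strand, at bases 45 to 50. An interferon gamma activated site occurs in 8.30% of promoters. No window of these 5 genes held the letters of the interferon-stimulated response element or the NF-kB site, which 3.44% and 4.51% of promoters hold. A match is only a match of letters and says nothing about binding in these cells.

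**Figure D1:**
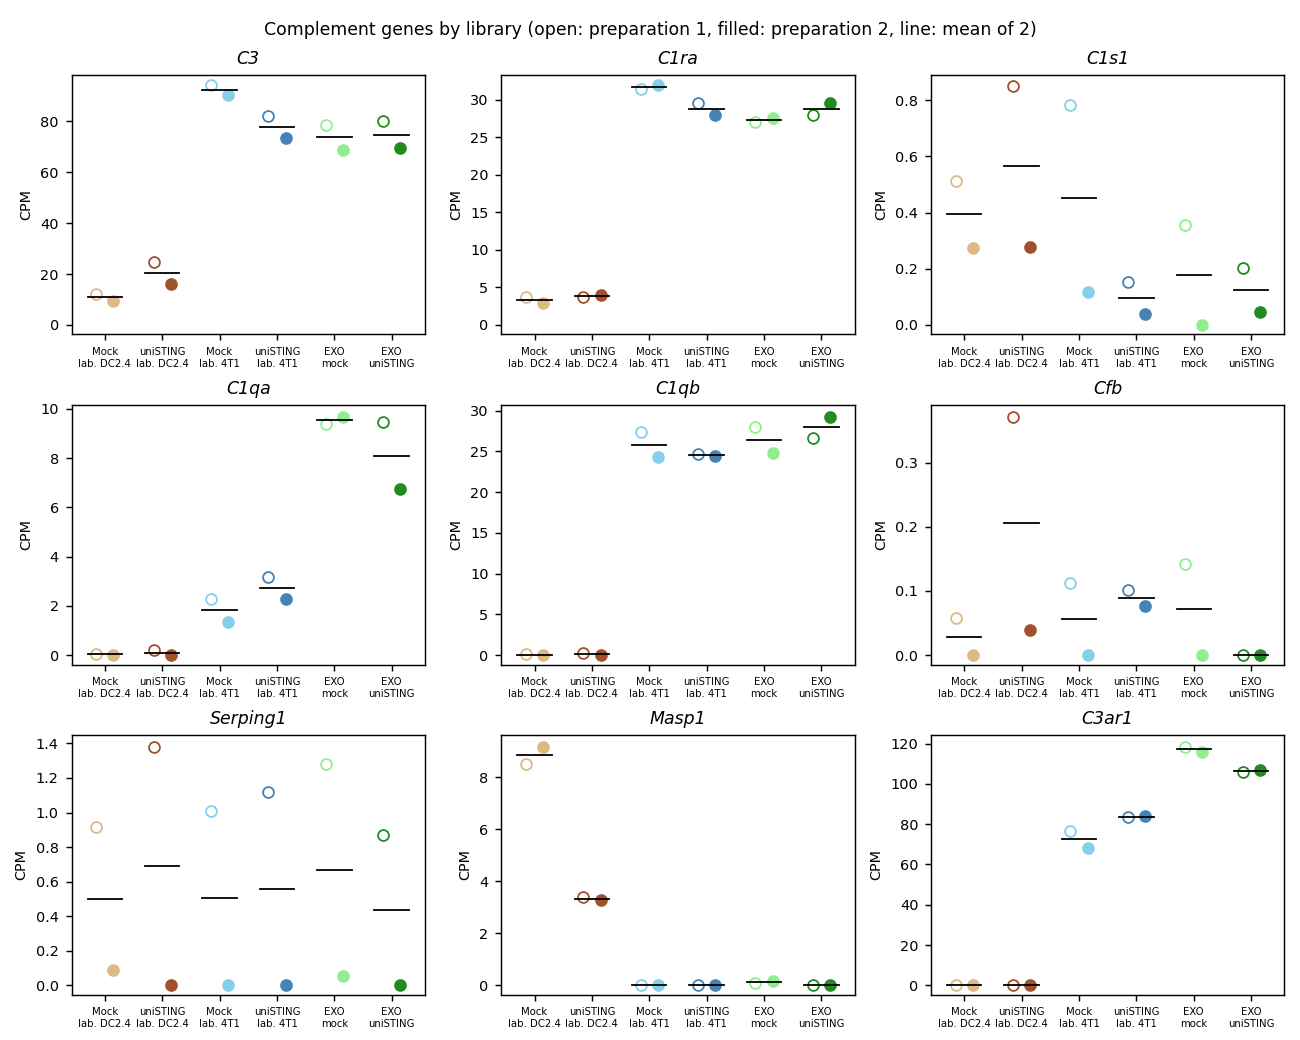
Level of each of the 9 genes in every library, in CPM on the y axis of its own panel, by labelled group; open circles are preparation 1, filled circles preparation 2 and lines the mean of both. C3ar1, C1qa and C1qb are near 0 in the groups labelled DC2.4 and given mRNA, Masp1 is present in those groups and near 0 elsewhere, and Serping1 is near 0 in every preparation 2 library.

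The central component C3 was higher after uniSTING mRNA than after Mock mRNA in libraries labelled DC2.4. Its counts were 213 and 208 in Mock and 463 and 406 in uniSTING, preparation 1 first, or 12.2 and 9.44 CPM against 24.6 and 16.2 CPM. The groups did not overlap, and both preparations moved the same way, by 1.03 in preparation 1 and 0.80 in preparation 2 on the log2 scale. The fitted log2 fold change was 0.92 (SE 0.19, edgeR adjusted p = 0.0014), a 1.89-fold rise. The fold kept its direction in every alternative, between 0.62 and 1.23 on the log2 scale. Its call was read only in fits that kept both libraries of each group, and it held in all of these. Adjusted p was 7.84e-26 with no filter on low counts and 1.47e-05 to 0.0016 in the other such fits. C3 was 1 of 2 members with 10 or more counts in both libraries of a compared group and a test here; in this comparison 20.8% of all 14863 genes tested were called higher and 20.9% lower. In preparation 1, lung transcripts summed to 43.9 CPM in Mock and 56.3 CPM in uniSTING, and pancreas transcripts to 98.6 and 148 CPM. Both summed to 0 in preparation 2 of these groups. The part of such transcripts in the C3 fold was not tested.

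C3 was far more abundant in the libraries labelled 4T1 and in the vesicle-treated ones. Mock labelled 4T1 held 94.2 and 90.2 CPM (1684 and 2274 counts) and uniSTING 82.1 and 73.5 CPM (1613 and 1909 counts). The groups did not overlap, uniSTING being lower, but the log2 fold change of -0.28 (SE 0.11) missed the threshold (edgeR adjusted p = 0.0684). It passed when only the 4 libraries compared were fitted (adjusted p = 0.00245) with no filter on low counts (adjusted p = 1.68e-07) and with the preparation number as a block (adjusted p = 0.00772), within a range of 1.68e-07 to 0.368 over all alternatives. The response of C3 differed between the labels: the value in 4T1 minus that in DC2.4 was -1.20 on the log2 scale (SE 0.22, edgeR adjusted p = 0.000798), and 31.1% of all genes had such a difference. EXOmock held 78.6 and 68.9 CPM of C3 and EXOuniSTING 80.3 and 69.4 CPM, values that interleave, with a log2 fold change of 0.02 (SE 0.12, edgeR adjusted p = 0.964). In order of mean level C3 ran from Mock labelled 4T1 at 92.2 ± 2.83 CPM (SD, n = 2) through uniSTING labelled 4T1, EXOuniSTING and EXOmock, which overlapped as neighbours, to uniSTING and Mock labelled DC2.4 at 20.4 ± 5.92 and 10.8 ± 1.93 CPM. In bulk RNA, fewer cells that make a transcript and less transcript per cell cannot be told apart.

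C3 was higher in preparation 1 than in preparation 2 in 6 of 6 groups, by 2.73 to 10.9 CPM. C1ra, by comparison, was higher in preparation 1 in 2 of 6 groups. The 12 hepatocyte markers summed to 1.64 to 4.33 CPM in preparation 1 and to 0.12 to 2.12 CPM in preparation 2, with Alb and Serpina1a at 0 counts in every library. Ahsg, Fgb and Fgg had 3 to 11, 1 to 25 and 3 to 20 counts in preparation 1 libraries and 0 in preparation 2. Apoa2 had 0 to 29 counts in preparation 1 and 0 to 45 in preparation 2. Summed over 7 fibroblast markers, mRNA libraries labelled DC2.4 held 11.0 to 14.3 CPM in preparation 1 and 8.08 to 9.81 CPM in preparation 2. Those labelled 4T1 held 2.01 to 3.26 and 0.238 to 0.462 CPM, and vesicle-treated ones 2.77 to 3.95 and 0.107 to 0.283 CPM. In the mRNA libraries labelled DC2.4, Pdgfra (126 to 213 counts) and Col1a1 (25 to 36) were counted in both preparations. Col3a1 and Dcn had 6 to 21 and 7 to 13 counts in preparation 1 there and 0 in preparation 2. The part of these transcripts in the higher C3 of preparation 1 was not tested.

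Factor B, which joins C3b in the alternative convertase, was barely measured: Cfb had 17 counts in all 12 libraries, did not pass the filter on low counts and is given by counts only. The highest value was 7 counts in uniSTING labelled DC2.4, preparation 1, against 1 in its preparation 2 partner and 1 and 0 in Mock. Summed, 8 against 1 counts give a ratio of 7.20, with a 95% interval for counting error of 0.966 to 320. The other 8 libraries held 0 to 2 counts, at or below the floor of 3 counts, and EXOuniSTING had 0 in both.

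The chain genes of C1q were counted almost only in the libraries with leukocyte markers. C1qb had 2 and 0 counts in Mock and 4 and 0 in uniSTING labelled DC2.4, but 489 and 613 in Mock labelled 4T1, 485 and 635 in uniSTING labelled 4T1, 393 and 464 in EXOmock and 397 and 621 in EXOuniSTING. Group means of C1qb in these leukocyte-marker groups lay between 24.6 and 27.9 CPM and overlapped as neighbours. C1qa had 1 and 0 counts in Mock and 4 and 0 in uniSTING labelled DC2.4. It had 41 and 34 counts in Mock labelled 4T1, 62 and 59 in uniSTING labelled 4T1, 132 and 181 in EXOmock and 141 and 143 in EXOuniSTING. Unlike C1qb, C1qa therefore fell into separate low and high sets among the leukocyte-marker libraries: under the 4T1 label Mock held 1.82 ± 0.67 CPM and uniSTING 2.71 ± 0.63 CPM, while EXOmock held 9.54 ± 0.21 CPM and EXOuniSTING 8.09 ± 1.92 CPM (SD, n = 2).

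Neither chain gene was called after uniSTING. In libraries labelled 4T1 the log2 fold change of C1qa was 0.57 (SE 0.37, edgeR adjusted p = 0.282) and that of C1qb -0.10 (SE 0.13, edgeR adjusted p = 0.642). In the vesicle-treated libraries they were -0.25 (SE 0.31, edgeR adjusted p = 0.651) and 0.09 (SE 0.13, edgeR adjusted p = 0.719). C1qa in EXOuniSTING was 9.45 CPM in preparation 1 and 6.74 in preparation 2, a range that overlapped EXOmock at 9.39 and 9.68 CPM.

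Between control groups, C1qa was 5.35-fold higher in EXOmock than in Mock labelled 4T1, a log2 fold change of 2.42 (SE 0.35, edgeR adjusted p = 3.24e-05), with 2.04 and 2.83 within preparations 1 and 2. C1qb over the same libraries had a log2 fold change of 0.03 (SE 0.13, edgeR adjusted p = 0.886). C1qc, which encodes the remaining chain and lies between the other two on chromosome 4, had a value of 0.66 (SE 0.12, edgeR adjusted p = 0.000368). The protein takes up equal numbers of its A, B and C chains, but the transcripts stood apart per length. In Mock labelled 4T1 the levels were 1.75 ± 0.64 CPM per kb of exonic length for C1qa, 23.7 ± 1.98 for C1qb and 7.20 ± 0.34 for C1qc, and in EXOmock 9.17 ± 0.20, 24.2 ± 2.04 and 11.4 ± 0.80 (SD, n = 2). The ratio of C1qa to C1qb per length was 0.0877 and 0.058 in the 2 Mock libraries labelled 4T1, 0.134 and 0.0972 in uniSTING labelled 4T1, 0.351 and 0.408 in EXOmock, and 0.372 and 0.241 in EXOuniSTING. All 4 vesicle-treated libraries thus lay above all 4 labelled 4T1. The C1qb to C1qc ratio ran from 2.11 to 2.4 in the former and from 2.77 to 3.38 in the latter. Uniquely mapped reads were counted over the files' annotated exons, so levels per length depend on that annotation.

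**Figure D2:**
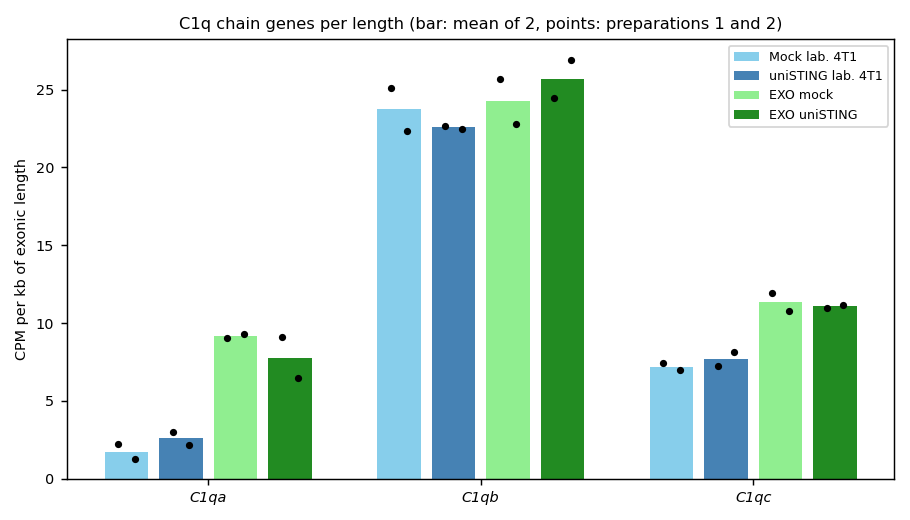
C1q chain genes in the 4 groups with leukocyte markers, in CPM per kb of exonic length on the y axis; bars are means of 2 libraries and points are preparations 1 and 2. C1qa is at 1.75 in Mock labelled 4T1, 2.61 in uniSTING labelled 4T1, 9.17 in EXOmock and 7.78 in EXOuniSTING, while C1qb stays between 22.6 and 25.7.

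C1ra, the gene of the C1r protease that cleaves C1s, was present without a matching level of C1s1, the gene of the C1s protease that cleaves C4 and C2. C1ra counts were 65 and 64 in Mock and 69 and 99 in uniSTING labelled DC2.4, then 562 and 804, 580 and 725, 379 and 514, and 418 and 628 in Mock and uniSTING labelled 4T1, EXOmock and EXOuniSTING. C1s1 had 0 to 16 counts in any library and 68 over all 12, against 4907 of C1ra. Per length, Mock labelled 4T1 held 10.6 ± 0.11 CPM per kb of C1ra and 0.144 ± 0.15 of C1s1 (SD, n = 2), and Mock labelled DC2.4 1.11 ± 0.19 and 0.126 ± 0.05. Each has a close copy beside it on chromosome 6: C1rb had 0 or 1 counts per library and C1s2 0 to 9. Of the 35 counts of C1s2, 17 were in uniSTING labelled 4T1 and 12 in EXOuniSTING, against 0 in Mock labelled 4T1 and 4 in EXOmock. Reads shared by such copies are lost when only unique ones are counted, so the values of C1ra and C1s1 are uncertain to that extent.

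No treatment comparison called C1ra. Its log2 fold changes were 0.24 (SE 0.14, edgeR adjusted p = 0.238) in libraries labelled DC2.4 given mRNA, -0.17 (SE 0.08, edgeR adjusted p = 0.128) in those labelled 4T1 and 0.08 (SE 0.08, edgeR adjusted p = 0.559) with vesicles. In the first of these, the value was about 0 in preparation 1 (3.71 and 3.66 CPM in Mock and uniSTING) and 0.46 in preparation 2 (2.90 and 3.95 CPM). The response under the 4T1 label minus that under the DC2.4 label was -0.41 (SE 0.16, edgeR adjusted p = 0.0703). It passed without Mock labelled DC2.4 preparation 1 (-0.59, adjusted p = 0.0269, within 0.0269 to 0.474 over the alternatives).

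C1s1 counts in preparation 1 and 2 were 9 and 6 in Mock labelled DC2.4, 16 and 7 in uniSTING labelled DC2.4, 14 and 3 in Mock labelled 4T1, 3 and 1 in uniSTING labelled 4T1, 5 and 0 in EXOmock, and 3 and 1 in EXOuniSTING. All groups overlapped with their neighbours in order of level. The 4 against 17 counts of uniSTING and Mock labelled 4T1 give a ratio of 0.222, with a 95% interval for counting error of 0.0544 to 0.681; the 2 groups overlapped in CPM, and 14 of the 17 counts lay in 1 library.

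Serping1 encodes the C1 inhibitor, which removes C1r and C1s from the activated complex and also inhibits MASP proteases. It was counted almost only in preparation 1. Preparation 1 libraries held 13 to 26 counts each, 113 in sum, and preparation 2 libraries 0 to 2, 3 in sum, although preparation 2 was 1.26 to 1.42 times deeper. Within preparation 1, Serping1 had 16 counts in Mock and 26 in uniSTING labelled DC2.4, 18 and 22 in those labelled 4T1, and 18 and 13 in EXOmock and EXOuniSTING. Its group means, 0.435 to 0.690 CPM, hide this split, all groups overlapped and no fold change is given. Beside it, the 6 lung epithelium markers summed to 43.9 to 78.6 CPM in preparation 1 and at most 0.115 CPM in preparation 2. The pancreas markers summed to 14.1 to 148 CPM and 0 CPM. In the mRNA libraries labelled DC2.4 the 7 fibroblast markers summed to 11.0 to 14.3 and 8.08 to 9.81 CPM. There Pdgfra (126 to 213 counts) and Col1a1 (25 to 36) were counted in both preparations. Col3a1 and Dcn had 6 to 21 and 7 to 13 counts in preparation 1 of these groups and 0 in preparation 2. Elsewhere the fibroblast markers summed to 2.01 to 3.95 and 0.107 to 0.462 CPM. The part of all these transcripts in the Serping1 counts was not tested. Other complement genes leaned to preparation 1 too, picked here after their counts were seen: Hc, the C5 gene, had 76 counts in preparation 1 and 8 in preparation 2, C7 26 and 0, Cfd 15 and 2, and C4b 158 and 84. C1s1 had 50 and 18 counts and Cfb 14 and 3. Masp1 had 214 and 287, C1ra 2073 and 2834, C3ar1 6256 and 8349, and C3 6277 and 7558. These raw counts were higher in the deeper preparation and are not scaled for depth. In CPM, C1ra and C3ar1 were each higher in preparation 1 in 2 of 6 groups, and C3 in 6 of 6.

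**Figure D3:**
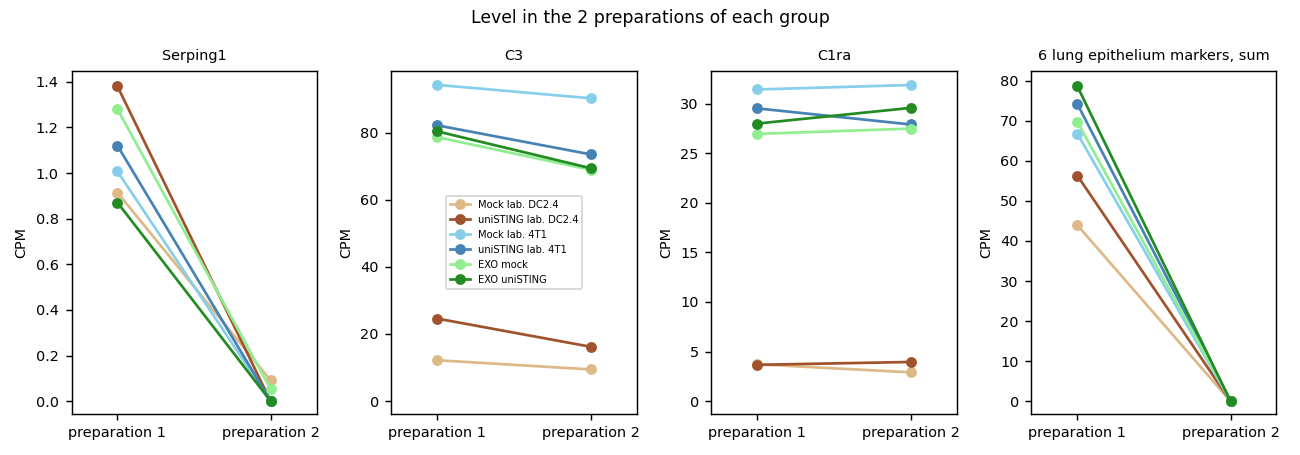
Levels in CPM (y axis) of Serping1, C3, C1ra and the sum of 6 lung epithelium markers in preparations 1 and 2 (x axis), 1 line per group. Serping1 and the lung markers fall to near 0 in preparation 2 in all 6 groups, C3 is lower in preparation 2 in all 6, and C1ra has no common direction.

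Masp1 exceeded 3 counts per library only in the epithelial-marker libraries, those given mRNA under the DC2.4 label. It had 149 and 202 counts in Mock and 64 and 82 in uniSTING, or 8.51 and 9.16 CPM against 3.40 and 3.27 CPM. The groups did not overlap; the means were 8.84 ± 0.46 and 3.33 ± 0.09 CPM (SD, n = 2). The fitted log2 fold change was -1.39 (SE 0.23), 2.62-fold lower, with -1.31 and -1.47 within preparations 1 and 2; since this fall chose the gene, no test is given. Masp1 has the longest exonic length of the members, 9.83 kb, and with the trend of fold change on length removed its value was -1.22. Elsewhere it had 0 counts in the 4 libraries labelled 4T1, 1 and 3 in EXOmock and 0 in EXOuniSTING. Against a floor of 3 counts over the group, Mock labelled 4T1 was at least 128-fold lower than Mock labelled DC2.4. Masp2, the protease that works beside MASP1, had 25 counts in preparation 1 and 17 in preparation 2. By group it had 20 in Mock and 14 in uniSTING labelled DC2.4, and 1 to 4 in each other group. The mannose-binding lectin genes Mbl1 and Mbl2 had 0 counts. The ficolin gene Fcna had 34 and 42 in Mock and uniSTING labelled DC2.4, and 143 to 227 in each other group.

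C3ar1, the C3a receptor gene, followed the leukocyte markers. It had 0 and 0 counts in Mock and 1 and 2 in uniSTING labelled DC2.4. Under the 4T1 label it had 1374 and 1724 counts in Mock and 1639 and 2179 in uniSTING, or 76.8 and 68.4 CPM against 83.4 and 83.9 CPM. The groups did not overlap, uniSTING being higher, and the log2 fold change was 0.18 (SE 0.05, edgeR adjusted p = 0.00915), a 1.14-fold rise. C3ar1 was the 1 called of 5 members with enough counts in this comparison, where 12.6% of all genes tested were called higher and 15.7% lower. The call was lost in DESeq2 (adjusted p = 0.0519), without Mock labelled 4T1 preparation 2 (0.131) and without uniSTING labelled 4T1 preparation 2 (0.0633), in a range of 0.00135 to 0.131 over the alternatives. The log2 fold change was 0.10 within preparation 1 and 0.26 within preparation 2.

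With vesicles the values of C3ar1 went the other way. EXOmock held 118 and 116 CPM (1665 and 2169 counts) and EXOuniSTING 106 and 107 CPM (1577 and 2275 counts). These groups did not overlap either, but the log2 fold change of -0.14 (SE 0.04) missed the threshold (edgeR adjusted p = 0.0542). It passed with no filter on low counts and with only the 4 libraries fitted, and ranged from 0.0134 to 0.226 in adjusted p over the alternatives. In edgeR's fit 0 of 5 members were called with vesicles, 1 of 5 had an unadjusted p below 0.05 and DESeq2 called 0; of all genes tested, 7.96% were called higher and 8.14% lower. The response to vesicles minus that to mRNA under the 4T1 label was -0.32 on the log2 scale (SE 0.06, edgeR adjusted p = 0.00225), where 28.0% of all genes differed. It kept its call in every alternative. For the other members this difference was 0.29 for C3 (SE 0.16, edgeR adjusted p = 0.189), 0.25 for C1ra (0.11, 0.121), -0.81 for C1qa (0.48, 0.234) and 0.19 for C1qb (0.18, 0.512), SE and edgeR adjusted p in brackets.

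**Figure D4:**
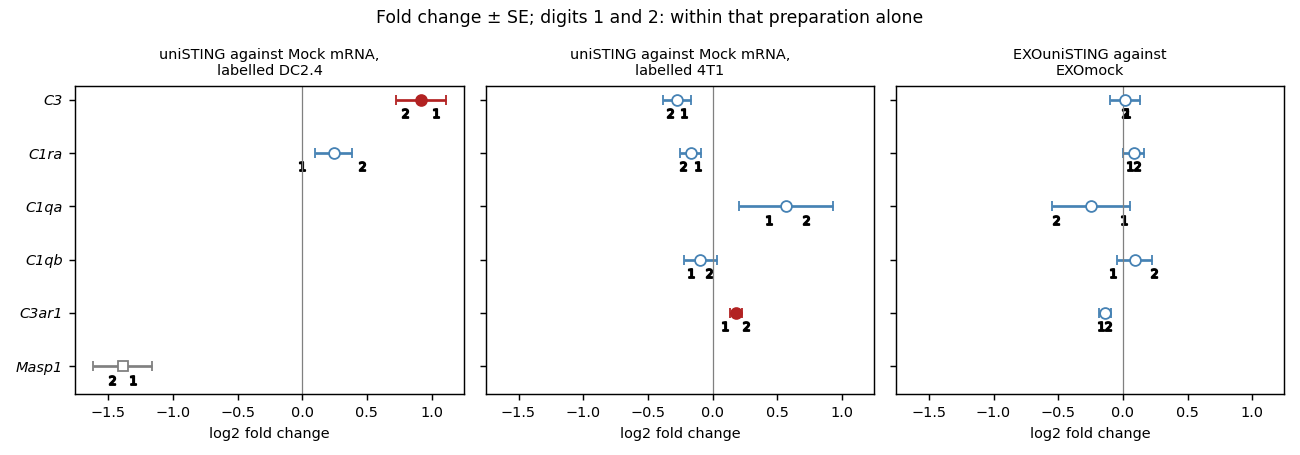
Log2 fold change (x axis) of each member with 10 or more counts in both libraries of a compared group, in the 3 comparisons; circles with bars are the fitted value ± SE, red where the adjusted p is below 0.05, the grey square is Masp1 without a test, and the digits 1 and 2 give the value within that preparation. C3 in libraries labelled DC2.4 (0.92) and C3ar1 in those labelled 4T1 (0.18) passed the test.

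Between Mock labelled 4T1 and Mock labelled DC2.4, where 83.0% of all genes tested were called in either direction, C3 was 8.19-fold higher (log2 3.03, SE 0.15, edgeR adjusted p = 7.92e-11) and C1ra 9.17-fold higher (log2 3.20, SE 0.11, edgeR adjusted p = 7.99e-13) under the 4T1 label. C1qb had 1102 against 2 summed counts, a ratio of 506 with a 95% interval for counting error of 140 to 4180, and C1qa 75 against 1, a ratio of 68.8 (12 to 2754). C3ar1 was at least 948-fold higher, with 3098 counts against 0 and a floor of 3 counts over the group. C1qa, C1qb, C3ar1 and Masp1 passed the filter on low counts only through groups where they are high, so their calls here are not read as support. The libraries under the DC2.4 label did not resemble each other: C3ar1 was 0 CPM in Mock mRNA and 117 ± 1.71 CPM in EXOmock (SD, n = 2), and Masp1 8.84 and 0.116 CPM.

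EXOmock against Mock labelled 4T1, the 2 control groups with leukocyte markers, differ both in line label and in vesicle against mRNA treatment, which cannot be told apart. Mock labelled 4T1 is also the control of the mRNA comparison above. C1qa and C3ar1 were higher and C3 and C1ra lower in EXOmock, 4 of 5 members, where 53.7% of all genes tested were called. C3ar1 had a log2 fold change of 0.70 (SE 0.05, edgeR adjusted p = 2.41e-08), C3 -0.33 (SE 0.11, edgeR adjusted p = 0.0228) and C1ra -0.22 (SE 0.08, edgeR adjusted p = 0.0362). Those of C3 and C1ra were lost in DESeq2 (adjusted p = 0.183 and 0.066), in ranges of 7.56e-12 to 0.183 and 0.00874 to 0.134. Both were also lost without Mock labelled 4T1 preparation 1, without its preparation 2 and without EXOmock preparation 2, and C1ra without EXOmock preparation 1 too.

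Among 46 other complement genes, 21 passed the filter on low counts and 9 had 0 counts in every library. In libraries labelled DC2.4 and given mRNA, 9 had enough counts: 1 rose, 2 fell and 6 were not called, with a median log2 fold change of 0.11 against 0.00 for all genes. Of all genes tested 20.8% were higher and 20.9% lower here, so the list was not called more often. Cfp, the gene of properdin, which stabilizes the alternative convertase, rose by 0.61 on the log2 scale (SE 0.20, edgeR adjusted p = 0.0252), from 2.13 to 3.11 CPM, with 0.22 within preparation 1 and 0.98 within preparation 2. The complement receptor subunit gene Itgb2 fell by 0.21 (edgeR adjusted p = 0.00396). Clu, whose product clusterin holds back the terminal complex, changed by -0.19 (SE 0.07, edgeR adjusted p = 0.049), from 241 to 210 CPM. Within preparations 1 and 2 the Clu value was -0.12 and -0.24. The Clu call lay at the threshold and is uncertain. Clu stood at 0.538 CPM in Mock labelled 4T1.

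Under the 4T1 label 18 other complement genes had enough counts, of which 2 rose, 3 fell and 13 were not called (median -0.02 against -0.01 for all genes). Of all genes tested 12.6% were higher and 15.7% lower, a like share. The C5a receptor gene C5ar1 rose from 21.7 to 27.8 CPM (log2 0.33, edgeR adjusted p = 0.0377), and Itgb2 rose by 0.20 (edgeR adjusted p = 4.4e-05). The largest fall was in Cd93, once described as a C1q receptor, from 71.8 to 35.0 CPM (log2 -1.06, edgeR adjusted p = 1.36e-06). Itgax, the subunit that makes complement receptor 4 with Itgb2, changed by -0.67 (edgeR adjusted p = 0.00104) and the scavenger collectin Colec12 by -0.10 (edgeR adjusted p = 0.031).

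With vesicles, 1 of 17 rose, 6 fell and 10 were not called (median -0.13 against 0.00), beside 7.96% higher and 8.14% lower of all genes tested. Itgax rose by 0.54 (edgeR adjusted p = 0.0145). C5ar1, higher after uniSTING mRNA under the 4T1 label, was lower here (log2 -0.41, edgeR adjusted p = 0.0261). Itgb2 changed by -0.23 (edgeR adjusted p = 4.41e-05), Itgam, the subunit of complement receptor 3, by -0.26 (edgeR adjusted p = 0.00068), and Cr1l, the rodent membrane regulator of C3 convertases known as Crry, by -0.34 (edgeR adjusted p = 0.000595), from 57.6 to 45.3 CPM. Between EXOmock and Mock labelled 4T1, 8 of 18 were higher and 3 lower, with a median of 0.38 against 0.00, where 53.7% of all genes were called. Cfp, at 92.9 against 43.7 CPM, and Cr1l, at 57.6 against 34.0 CPM, were among the higher, and Itgax, at 12.6 against 25.6 CPM, and Cd93, at 56.3 against 71.8 CPM, among the lower.

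The genes whose profiles lay nearest to each member over the 12 libraries, by the root mean square difference of centred log2(CPM + 1), were not complement genes. Nearest to C3 were S100a1 (0.192), Mcee (0.196) and Acvrl1 (0.210). C1ra lay nearest to Mfsd11 (0.0731), Atp6v0d1 and Tmem159, and C1qb to Cdkn1a (0.105), Plekho1 and Rgs2, with C1qc in place 96 of the 12731 genes compared. For C1qa these were Nox3, Pilra (0.267) and Bcl2a1d, for Masp1 Hist1h1e (0.146), Ephb6 and Insyn1, and for C3ar1 Cd84 (0.105), Rgs1 and Alox5ap. These profiles are led by the gap between the 4 libraries with epithelial markers and the other 8.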

How the data were processed

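RNA from a column kit (1 µg of total RNA per library) was made into Illumina libraries, per the labels' protocols. The authors deposited gene counts, used as they stand. HISAT2 and GRCm39 are named in the submitters' processing notes; per the file headers, featureCounts (Subread 2.0.1) counted paired-end reads over exons of the Ensembl release 103 annotation without a strand option, so antisense overlaps cannot be told apart. Symbols matched 52093 of the 53647 genes.

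Fold changes came from edgeR 4.0.16 (R 4.3.3) with its quasi-likelihood F test. All 12 libraries entered 1 model of group means with TMM scaling; filterByExpr left 14863 genes, over which p-values were adjusted (Benjamini-Hochberg, threshold 0.05). The common coefficient of variation between libraries of a group, beyond counting error, was 3.05%. A member's fold is given where a compared group had 10 or more counts in both libraries, otherwise counts or ratios with exact 95% intervals; these and the floor of 3 counts (0.115 to 0.213 CPM) cover counting error only. Means ± SD are CPM over deposited totals. With 2 libraries per group, groups often do not overlap even without an effect, so overlap is a description only. Within groups, the chi-square per gene averaged 2.17 to 2.77, with medians of 0.661 to 0.700. On average no pair agreed within sampling noise. A few genes can raise such a mean, but the medians also lay above the value for sampling noise alone.

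Named genes were the 9 members; up to 3 called genes per direction and comparison from the other complement list with at least 1 CPM; and the 3 nearest profiles of members reaching 5 CPM. A gene that these rules pick is not reported here. Members and lists were chosen with earlier results of these data known. Alternatives were DESeq2 1.42.0, its size factors in edgeR, no filter, 1 CPM in 2 libraries, fitting just the compared libraries, a block for preparation number, single preparations, length-trend removal (lowess span 0.3) and leaving out each library. The procedure was tested on simulated counts of the 3 treatment comparisons. The share of false calls exceeded the threshold in that of the DC2.4 label with mRNA and in that of the vesicles. Calls near the threshold there are therefore uncertain. The share did not exceed it in that of the 4T1 label. The simulated libraries held no difference between preparations beyond random spread, so this does not secure calls under that label.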

Additional observations from a re-analysis of the deposited data

Results flagged for a closer look

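The change of C3 after uniSTING mRNA differed between the line labels: the log2 fold change under the 4T1 label (-0.28) minus that under the DC2.4 label (0.92) was -1.20 (SE 0.22, edgeR adjusted p = 0.000798). Under the DC2.4 label both uniSTING libraries lay above both Mock libraries, and under the 4T1 label both lay below. Such an order often arises without an effect when each group holds 2 libraries. The change of C3ar1 differed between treatments: the value with vesicles (-0.14) minus that with mRNA under the 4T1 label (0.18) was -0.32 (SE 0.06, edgeR adjusted p = 0.00225), with the treated libraries all below their controls in the former and all above in the latter.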

How the results depend on the processing

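Over 31 member fold changes and 377 alternative values, 348 kept their direction and side of the threshold or, where there was no test, moved by less than the spread between replicates. Under the 4T1 label, where 1 member was called, 2 were with no filter on low counts, 2 with only the libraries compared, 0 in DESeq2 and 0 to 1 on leaving out 1 library. With vesicles, where 0 members were called, 1 was with no filter and 1 with only the libraries compared; calls over all genes, 2393, were 1587 in DESeq2 and 1294 to 1532 on leaving out a vesicle library. In EXOmock against Mock labelled 4T1, where 4 members were called, 2 were in DESeq2 and 2 to 3 on leaving out a library, and the C1qb log2 fold change of 0.03 was -0.00406 with no filter and -0.055 to 0.10 on leaving out a library. C3 with vesicles ranged from -0.079 to 0.13 on leaving out a library. For the response under the 4T1 label minus that under the DC2.4 label 1 to 2 members were called on leaving out a library; for vesicles minus mRNA, 2 with no filter. Fits leaving a group with 1 library assume that it varies like the other groups. The cause of these shifts was not tested.

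The preparation number as a replicate block changed the members called from 1 to 2 under the 4T1 label (C3, adjusted p = 0.00772) and from 1 to 2 in the vesicle minus mRNA difference; calls over all genes were 6414, 4432 and 2490 with the block and 6196, 4209 and 2393 without it. Across the 15 pairs of groups, the differences of preparation 1 from preparation 2 correlated at 0.294 to 0.470, so same-numbered libraries deviated together; the labels do not say what they share. Cfb, C1s1 and Serping1 had too few counts for a fold change.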
